A study of Mus musculus with 6 samples.

Results

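The mouse reference assembly GRCm38 carries a copy of the ribosomal DNA repeat on chromosome 17, and its CpG methylation was measured in the right testis of hemicastrated and sham-operated mice. The copy was taken as all listed cytosine positions from 39842000 to 39850000 of chromosome 17 with at least 10 reads in each of the 6 libraries. These positions, called members here, were 752 of the 1206 positions listed there in any library, and 752 of the 952515 positions of chromosomes 1 to 19, X and Y that met the same minimum. Within the region read counts alone set which positions were kept, but the copy itself was picked with earlier results of these data known. The copy stands in the assembly once while the genome holds many, so its reads come from many repeat copies and its level is an average over them.

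The hemicastrated group was 3 male KM mice whose left testis was removed before puberty, and the sham group was 3 male KM mice that had sham surgery at the same time. The right testis was taken from all 6 mice at body maturity and frozen, and no other treatment or allele is named in the labels. Reduced representation bisulfite sequencing was used: DNA is cut by MspI at its recognition sites, fragments of 40 to 220 bp are kept, and bisulfite turns unmethylated cytosines into uracil, so that each read calls a cytosine methylated or unmethylated. Whole testis is a mixture of germ cells and somatic cells, and no transcripts were measured with which to check the labelled tissue against its markers.

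The ribosomal DNA repeat encodes the 18S, 5.8S and 28S RNAs of the ribosome, which RNA polymerase I transcribes as a long precursor from many tandem copies. Only some copies are transcribed in a given cell. CpG methylation of a repeat is associated with silent copies, and the chromatin remodelling complex NoRC, made of Baz2a and Smarca5, is known to recruit DNA methyltransferases to them. The level of an average over all copies therefore depends on how many copies are methylated in the cells sampled, and a change in the number of copies, in their methylation or in the cells that carry them cannot be told apart in bulk tissue.

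The libraries held 64504011 to 78630942 calls in all. Between 1175300 and 3509541 of these calls lay on the copy. With calls taken as independent, counting error of a library's pooled level was small, and Wilson 95% intervals cover counting error only. Calls that share a read are not independent, so the intervals of pooled levels understate that error. The median member was read 203.5, 317.5 and 219 times in hemicastrated mice 1, 2 and 3, and 495, 223 and 668 times in sham mice 1, 2 and 3. Members ran from 39843026 to 39848709, a span of 5684 bp, and 652 of them had another member at the next base, the spacing of the paired cytosines of a CpG. Of the 752 members, 437 had at least 100 reads and 301 at least 1000 reads in every library. Neighbouring members share reads and are not independent. Mitochondrial DNA, taken as almost free of methylation, was called methylated in 0.478% to 0.617% of its calls.

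The gene table places one ribosomal gene inside the region. Rn18s-rs5, annotated as a pseudogene related to the 18S RNA gene, covers 39846354 to 39848202 (1849 bp) and holds 188 members. Another 491 members lie at lower coordinates (before the 18S copy) and 73 at higher coordinates (after it). The long noncoding RNA gene AY036118 overlaps 84 members. The table gives no boundaries of the ribosomal precursor, so sides are named by coordinate and no member is called a promoter position.

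The pooled level of the copy, its methylated calls as a percent of all its calls, differed by a factor of 4.90 between the lowest and the highest mouse. It was 27.5%, 37.6% and 11.1% in hemicastrated mice 1, 2 and 3, and 54.5%, 22.1% and 52.4% in sham mice 1, 2 and 3. Sham mice 1 and 3 were highest and hemicastrated mouse 3 was lowest, but sham mouse 2 lay below hemicastrated mice 1 and 2, so the groups overlapped. The group values were 25.4% ± 13.4 in hemicastrated and 43.0% ± 18.2 in sham mice (SD, n = 3 each), a difference of -17.6 points with a standard error of 13.0. This was not larger than the spread between mice (p = 0.3 by an exact permutation test, two-sided, which cannot give less than 0.1 here).

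The unweighted mean over members ran in the same order of mice. It was 31.3%, 43.9% and 15.6% in hemicastrated mice and 56.2%, 26.0% and 53.9% in sham mice. The groups averaged 30.3% ± 14.2 and 45.4% ± 16.8 (hemicastrated and sham, SD, n = 3 each), a difference of -15.1 points (SE 12.7, exact two-sided permutation test, p = 0.3). The pooled difference was -28.1 points without sham mouse 2 and -10.4 without hemicastrated mouse 3, and lay between these values when any other mouse was left out.

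**Figure D1:**
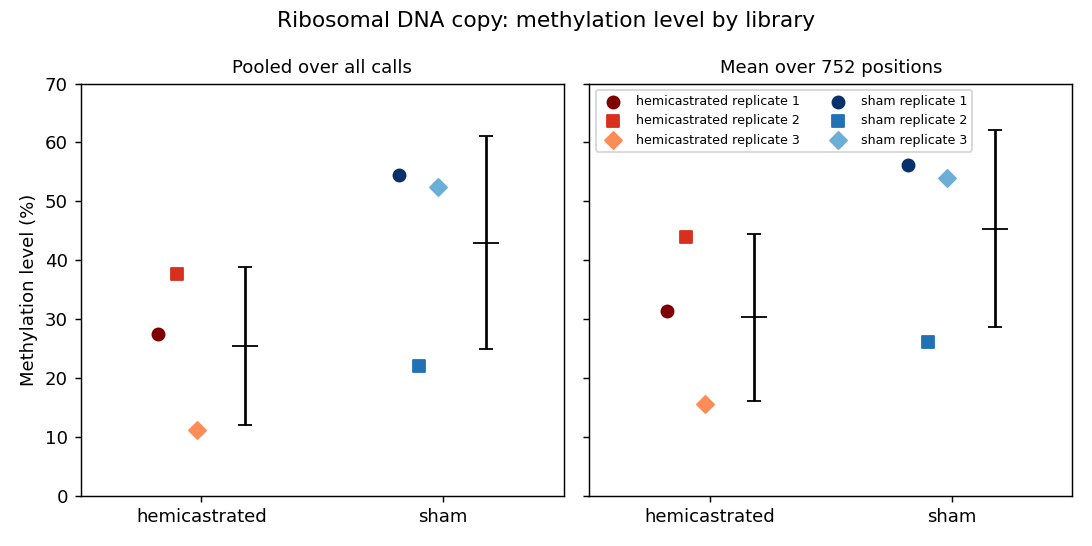
Methylation level of the ribosomal DNA copy in percent (y axis) in each of 3 hemicastrated and 3 sham libraries (x axis), pooled over all calls (left) and as the mean over the 752 positions (right). Points are single mice and bars are the mean and SD of 3 mice; sham mouse 2, at 22.1% pooled, lies within the hemicastrated range of 11.1% to 37.6%.

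The mice had the same order in each of 3 sections of the copy. Before the 18S copy the pooled levels were 26.1%, 34.9% and 10.9% in hemicastrated mice and 53.4%, 20.3% and 50.8% in sham mice. Within the 18S copy they were 33.8%, 48.8% and 13.0% in hemicastrated mice and 58.5%, 28.7% and 58.0% in sham mice. After it they were 27.9%, 44.0% and 9.45% in hemicastrated mice and 57.5%, 22.7% and 55.8% in sham mice. In each section sham mice 1 and 3 were highest, hemicastrated mouse 3 was lowest, and the groups overlapped through sham mouse 2. The 18S copy was higher than the section before it in 6 of 6 libraries. The differences were -17.6, -16.6 and -18.2 points before, within and after the 18S copy (exact two-sided permutation test, p = 0.3 for each, 0.3 after Benjamini-Hochberg adjustment over the 3 sections).

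Member by member, hemicastrated mouse 3 had the lowest level at 659 of 752 members (87.6%). Sham mouse 1 was highest at 501 members, sham mouse 3 at 183 and hemicastrated mouse 2 at 51. The full order of the 6 pooled levels recurred at 371 members, and at 292 of the 437 members with at least 100 reads in every library. The gap between the highest and the lowest mouse had a median of 45.6 points, with quartiles of 39.7 and 49.9. The member with the most reads, position 39844677, with 8953 to 29979 reads in a library, had 25.3%, 32.7% and 10.3% in hemicastrated mice and 48.8%, 19.4% and 46.8% in sham mice.

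The group mean was lower in hemicastrated mice at 725 members and higher at 27, with a median difference of -16.5 points. Of all 952515 positions of the genome, 43.2% were lower in the mean of hemicastrated mice, and the median difference was 0. The 725 members are not 725 observations, since each was read in the same 6 mice.

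**Figure D2:**
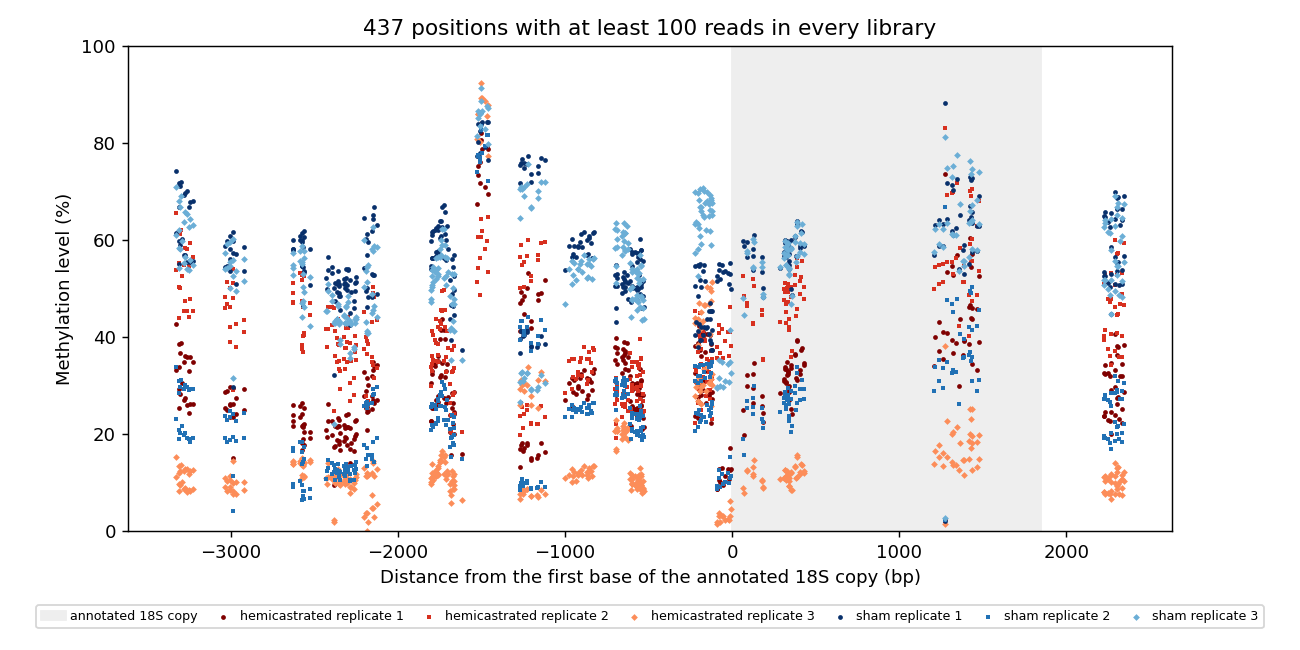
Methylation level in percent (y axis) of the 437 members with at least 100 reads in every library, against distance in bp from the first base of the annotated 18S copy (x axis; the shaded band is the 18S copy, 1849 bp), each point 1 member in 1 mouse. Sham mice 1 and 3 lie at the top and hemicastrated mouse 3 at the bottom of most stretches, apart from a short stretch of high levels in which hemicastrated mouse 2, the lowest there, has 57.6% pooled.

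Single members were tested with edgeR's quasi-likelihood test on methylated and unmethylated counts, fitted to all 814966 positions of the genome that were methylated in at least 1 read and unmethylated in at least 1. It called 4 of the 752 members at a Benjamini-Hochberg adjusted p below 0.05, all lower in hemicastrated mice, where the share of all tested positions called was 0.0866% (0.0416% called and lower). The 4 members, 39843857, 39843860, 39843874 and 39843879, lie within 23 bp and had equal or nearly equal read counts, so they are not independent calls. They were read 13, 14 and 75 to 77 times in hemicastrated mice and 68, 11 and 37 times in sham mice.

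At position 39843879 the levels were 30.8%, 50% and 0% in hemicastrated mice and 89.7%, 54.5% and 62.2% in sham mice (adjusted p = 0.00169 by edgeR). Each sham mouse was above each hemicastrated mouse there, though sham mouse 2 rested on 11 reads with a Wilson 95% interval of 28% to 78.7%. Position 39843857 had 38.5%, 35.7% and 0% in hemicastrated mice and 77.9%, 45.5% and 75.7% in sham mice (adjusted p = 0.00218 by edgeR), again with no overlap. At 39843860 and 39843874 (adjusted p = 0.0262 and 0.00934 by edgeR) the groups overlapped.

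In this fit the spread was estimated from all positions together, so a position's own spread between mice did not enter its p. The limma test on log2 ratios, which does use it, called 0 members, against 0.018% of all positions (smallest adjusted p 0.365). At an unadjusted p below 0.05 limma gave 246 members, against 4.52% of all positions. The edgeR calls fell to 0 without hemicastrated mouse 3 and to 0 without sham mouse 1, where 0.0911% and 0.0844% of all positions were called. They came to 24 without hemicastrated mouse 2 and to 17 without sham mouse 2, where 0.098% and 0.079% were called. The 4 called members have fewer than 20 reads in a library. With that minimum edgeR called 0 members, against 0.0962% of all positions, and 203 had an unadjusted p below 0.05, against 2.7%.

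At an unadjusted p below 0.05, edgeR gave 253 members lower in hemicastrated mice and 0 higher, against 1.37% of all tested positions lower. The count of members at that p in either direction turned on single mice. It was 550 without hemicastrated mouse 2 and 597 without sham mouse 2, against 2.14% and 1.85% of all positions at that p in either direction. It was 43 without hemicastrated mouse 3, 24 without sham mouse 1 and 67 without sham mouse 3, against 2.02%, 2.08% and 1.85% of all positions. Without hemicastrated mouse 3, the smallest adjusted p of a member by edgeR was 0.0868. It belonged to position 39843239, which was then 24.8 points higher in hemicastrated mice. Levels of the 3 mice of each group did not overlap at 11 members, all lower in hemicastrated mice, where 2.77% of all positions had no overlap and were lower and 2.41% had none and were higher. The share of members without overlap, 11 of 752, is below the background. The 11 had few reads: position 39847337, with 48 to 93 reads, had 66.7%, 72.6% and 52.1% in hemicastrated mice and 73.7%, 82.8% and 83.1% in sham mice.

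No member was called higher. The smallest p among members with a higher fitted level in hemicastrated mice belonged to position 39847522, in the 18S copy, with 30.4%, 78.7% and 53.3% in hemicastrated mice and 24.7%, 76.0% and 27.4% in sham mice (edgeR, unadjusted p = 0.113, adjusted p = 0.841). Hemicastrated mouse 2 and sham mouse 2 were both high and the other sham mice low at that position. The next were positions 39843239 (adjusted p = 0.870 by edgeR) and 39843210 (adjusted p = 0.882 by edgeR), which lie in a stretch with an order of mice of its own, described further on.

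Over tiles of 500 bp, which sum the reads of many members, none of the 12 tiles of the copy was called by edgeR, nor was any of 71149 tested tiles of the genome (0.0%). The adjusted p was 1 in each of the 12, and 1 tile had an unadjusted p below 0.05, against 4.27% of all tiles. That number was 10 without hemicastrated mouse 2 and 11 without sham mouse 2, against 4.75% and 3.97% of all tiles. The tile with that p in all mice, from 39845501, had 28.6%, 29.9% and 11.9% in hemicastrated mice and 52.3%, 23.3% and 52.4% in sham mice (edgeR, unadjusted p = 0.0403, adjusted p = 1). Sham mouse 2 was again below hemicastrated mice 1 and 2. The group mean was lower in hemicastrated mice in all 12 tiles, by -19.2 to -11.4 points, and the groups overlapped in all 12. With limma, 0 tiles of the copy were called and 0 had an unadjusted p below 0.05, against 4.99% of all tiles.

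**Figure D3:**
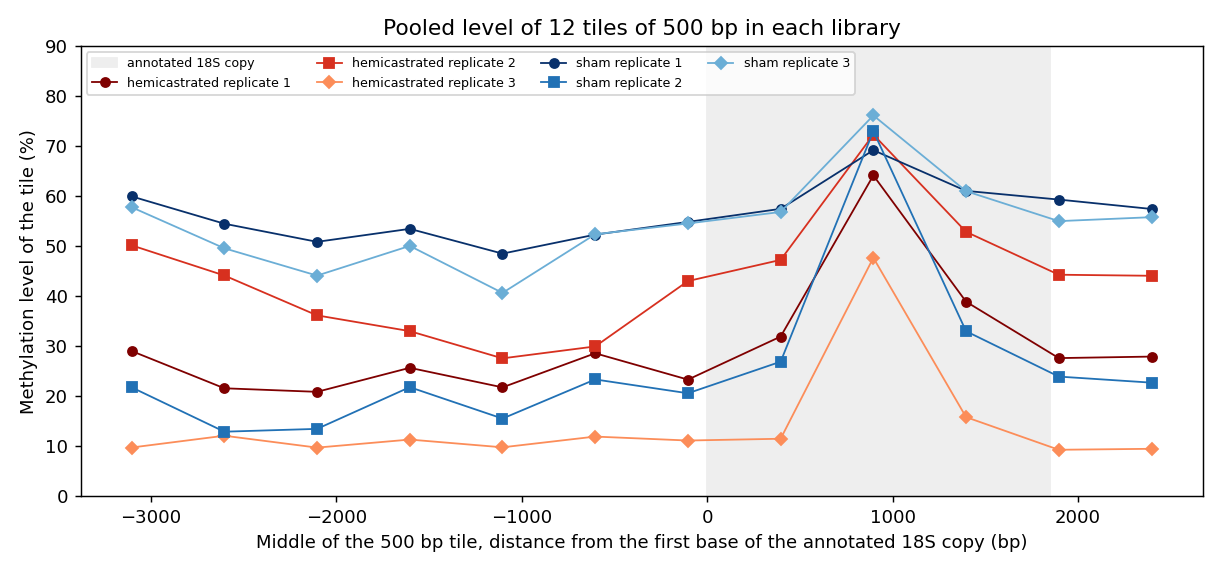
Pooled methylation level in percent (y axis) of the 12 tiles of 500 bp in each of the 6 mice, against the distance in bp of the tile's middle from the first base of the annotated 18S copy (x axis, shaded band). Hemicastrated mouse 2 comes close to hemicastrated mouse 1 before the 18S copy, at 29.9% and 28.6% in 1 tile, and all mice are highest in a tile within the 18S copy, hemicastrated mouse 3 at 47.7% and sham mouse 3 at 76.1%.

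The distance between mice was not constant along the copy. Hemicastrated mouse 2 had 0.84 times the level of sham mouse 1 in the tile from 39843001, 0.57 times in the tiles from 39845001 and 39845501, and 0.82 times in the tile from 39846501. In the tile from 39847001, within the 18S copy, it had 1.05 times the level of sham mouse 1. That tile held the highest levels of every mouse, 64.1%, 72.3% and 47.7% in hemicastrated mice and 69.2%, 73.0% and 76.1% in sham mice. It was thinly read, with a median of 50 reads per member.

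High levels in all mice were found in 2 short runs, defined after the values were seen as at least 10 members in a row with a mean above 60%, with single members in between allowed. The run from 39847337 to 39847484, 148 bp within the 18S copy with 26 members, had 72.5%, 80.0% and 60.4% in hemicastrated mice and 77.0%, 79.7% and 83.3% in sham mice. Its 10 neighbouring members after it had 37.2%, 51.5% and 15.0% in hemicastrated mice and 59.4%, 31.1% and 59.2% in sham mice. Within the run sham mouse 2 and hemicastrated mouse 2 stood beside sham mouse 3, while next to it sham mouse 2 was among the low mice.

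The members with the highest mean level lay in this run. Position 39847450 had 81.6%, 96.4% and 77.8% in hemicastrated mice and 85.7%, 90.5% and 90.8% in sham mice, with 28 to 74 reads. Positions 39847462 and 39847406 lay between 71.4% and 92.2% in every mouse. The run was read 41 to 83.5 times per member in a library (medians), while 437 of the 752 members had at least 100 reads in every library.

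The other run, from 39844826 to 39844894, held 12 members in 69 bp, none with a listed member at the next base. It had 75.2%, 57.6% and 85.5% in hemicastrated mice and 81.7%, 78.3% and 85.6% in sham mice. Here hemicastrated mouse 3, the lowest mouse of the copy, was level with sham mouse 3, and hemicastrated mouse 2 was lowest. The 10 members before it had 22.4%, 28.6% and 9.35% in hemicastrated mice and 47.4%, 19% and 44.4% in sham mice. Median reads per member of the run were 141, 189.5 and 132 in hemicastrated mice and 294, 136 and 936 in sham mice. Without the members of both runs, 714 members gave pooled levels of 27.4%, 37.6% and 11% in hemicastrated mice and 54.5%, 21.9% and 52.2% in sham mice.

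Nearly unmethylated members were few. A level below 20% in all 6 mice was found at 4 members, 39847627, 39847633, 39844057 and 39843917. Position 39847627, with 260 to 827 reads, had 2.56%, 2.10% and 1.54% in hemicastrated mice and 2.06%, 2.23% and 2.69% in sham mice. The mice lay within 1.15 points of each other there, while at the next base, position 39847628, they had 73.6%, 83.0% and 38.2% in hemicastrated mice and 88.2%, 66.8% and 81.1% in sham mice. Positions 39844057 and 39843917 had 0% to 17.6% in single mice with as few as 12 reads.

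A stretch near the low-coordinate end had an order of mice of its own. From 39843174 to 39843298, 125 bp with 24 members, hemicastrated mouse 2 was highest at 23 members, the longest such row for that mouse; the stretch was picked by that order. Pooled levels were 29.8%, 76.0% and 2.61% in hemicastrated mice and 56.4%, 5.98% and 36.7% in sham mice. Hemicastrated mouse 2 was above both high sham mice, and sham mouse 2 was near hemicastrated mouse 3 at the bottom. Median reads per member were 21.5, 260 and 290 in hemicastrated mice and 44, 210.5 and 176.5 in sham mice, so that hemicastrated mouse 1 and sham mouse 1 were thinly read there. Whether the reads of different mice came from the same repeat copies was not tested.

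Sham mouse 3 led over a stretch of its own. From 39845829 to 39846235, 407 bp with 39 members, it was highest at each member. This was the longest such row for that mouse, and the stretch was picked by that order. Pooled levels were 31.9%, 33.1% and 39.0% in hemicastrated mice and 46.6%, 28.5% and 65.3% in sham mice. Hemicastrated mouse 3 was the highest of its group in this stretch, unlike in the copy as a whole.

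The 437 members with at least 100 reads in every library formed 14 stretches separated by more than 60 bp. The pooled order of the 6 mice recurred in 10 of the 14, hemicastrated mouse 3 was lowest in 12, and sham mice 1 and 3 were the top pair in 13. The groups overlapped in each of the 14.

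The paired cytosines of a CpG, taken as neighbouring members, had similar levels. Among 139 neighbouring pairs with at least 100 reads in every library, the median absolute difference was 1.72 to 6.0 points in a library. The members of a pair parted in some stretches. From 39845084 to 39845233, over 8 pairs, the lower-coordinate cytosines had 17.1%, 24.5% and 8.13% in hemicastrated mice and 40.0%, 9.76% and 31.5% in sham mice, and the upper-coordinate ones of the same pairs 49.6%, 57.7% and 30.6% in hemicastrated mice and 76.0%, 42.1% and 71.4% in sham mice. The upper-coordinate cytosines were higher in 6 of 6 libraries and had far fewer reads, with library medians of 219 to 1071 against 5633 to 13447.

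The opposite side was higher in another stretch. From 39846130 to 39846346, over 11 pairs, the lower-coordinate cytosines had 37.7%, 38.0% and 46.6% in hemicastrated mice and 51.1%, 33.0% and 68.0% in sham mice, and the upper-coordinate ones of the same pairs 28.7%, 28.8% and 30.4% in hemicastrated mice and 41.1%, 24.1% and 63.5% in sham mice. The gap was 4.54 to 16.2 points in a library there. Of 12 stretches with at least 3 such pairs, the upper-coordinate cytosines were higher in all 6 libraries in 7 and the lower-coordinate ones in 2. The files name no strand, and the deeper strand sets a pooled level.

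The share of a library's calls that fell on the copy moved with its level. Shares were 2.90%, 3.39% and 1.53% in hemicastrated mice and 4.52%, 1.88% and 3.91% in sham mice. The order of the 6 mice by share was their order by pooled level, so Spearman's rho was 1 (exact permutation p = 0.00278, adjusted 0.00556 over 2 relations) and Pearson's r was 0.972 (exact permutation p = 0.00417, adjusted 0.00833, n = 6). Without hemicastrated mouse 3 and sham mouse 1, the mice farthest from the median share, r was 0.928 (n = 4, exact permutation p = 0.0833). Within groups r was 0.992 over the 3 hemicastrated and 0.987 over the 3 sham mice, too few for a test. Both quantities contain the methylated calls of the copy and are not independent by construction.

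The methylated calls differed far more between mice than the unmethylated ones. As a percent of all calls of the library, methylated calls on the copy were 0.797%, 1.28% and 0.171% in hemicastrated mice and 2.46%, 0.414% and 2.05% in sham mice, a 14.4-fold span between the lowest and the highest mouse. Unmethylated calls on the copy were 2.10%, 2.12% and 1.36% in hemicastrated mice and 2.05%, 1.46% and 1.86% in sham mice, a 1.55-fold span. The unmethylated share averaged 1.86% ± 0.431 in hemicastrated and 1.79% ± 0.302 in sham mice, and the methylated share 0.748% ± 0.555 in hemicastrated and 1.64% ± 1.08 in sham mice (SD, n = 3 each; no test was made). Why level and share moved together was not tested.

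**Figure D4:**
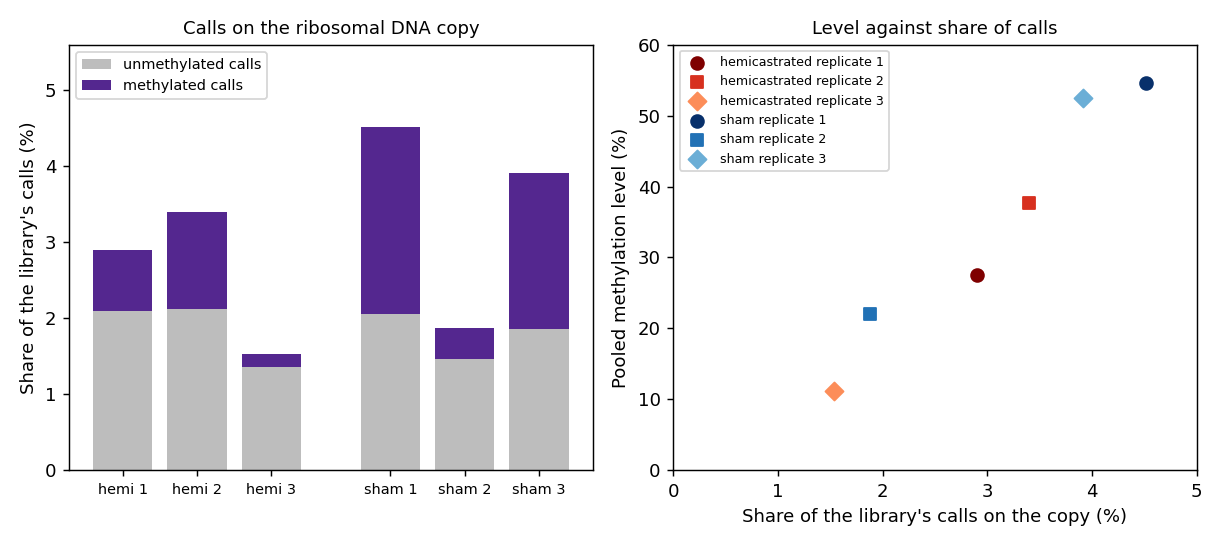
Left, calls on the ribosomal DNA copy as a percent of all calls of the library (y axis) in each mouse (x axis), split into methylated (purple) and unmethylated (grey) calls. Right, pooled level in percent (y axis) against the share of calls in percent (x axis), 1 point a mouse. Unmethylated calls span 1.36% to 2.12% and methylated calls 0.171% to 2.46%, and level and share rank the mice alike.

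The mean level of all other positions, 951763 in number, was 29.6%, 29.9% and 29.5% in hemicastrated mice and 29.5%, 30.2% and 30% in sham mice, a range of 0.719 points, where the mean over members of the copy ranged over 40.6 points. An average over so many separate places tends to vary less than a single place, so these ranges are not alike in kind. The copy was higher than the rest in 4 of 6 mice, by 8.06 points on average (mouse by mouse from -13.9 to 26.8; exact two-sided sign-flip test, p = 0.281, 6 mice allowing none below 0.031). Hemicastrated mouse 3 and sham mouse 2 were the mice in which the copy lay below the rest. Pooled level and the mean of the rest had r = 0.0401 over the 6 mice (exact permutation p = 0.936) and rho = -0.2 (p = 0.714, exact permutation). Without sham mice 1 and 2, the farthest in the mean of the rest, r was 0.941 (n = 4, exact permutation p = 0.0417), and it was 0.911 over the 3 hemicastrated and -0.752 over the 3 sham mice, so no single relation held across these subsets.

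The spread of the copy was wide beside that of other tiles too. Over its 12 tiles the highest and the lowest mouse lay 28.4 to 50.2 points apart, with a median of 43.0. Among 5128 other tiles with a mean level of 20 to 60%, the median gap was 16.8 points and 191 (3.72%) reached 43.0 points. Of the 47 such tiles with at least 30 positions, 2 reached it. Of the copy's own tiles, that from 39847001, with the lowest gap, had a mean level of 67.1%, outside that band. The 12 tiles are neighbours that share the mice and their repeat copies, so this sets values side by side and is no test.

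**Figure D5:**
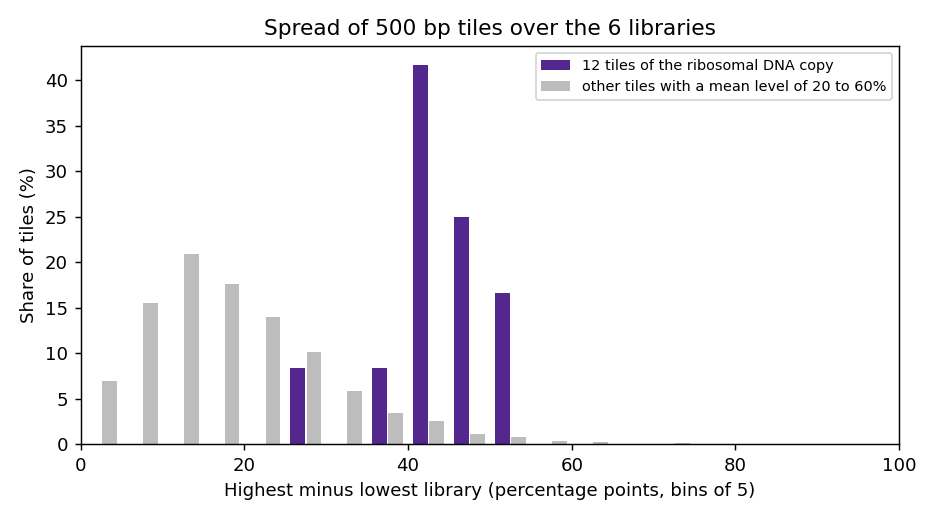
Share of tiles in percent (y axis) by the gap between the highest and the lowest of the 6 mice in percentage points (x axis, bins of 5), for the 12 tiles of 500 bp of the ribosomal DNA copy (purple) and 5128 other tiles with a mean level of 20 to 60% (grey). The copy's tiles lie between 28.4 and 50.2 points, while the median of the others is 16.8. The copy's tile at 28.4 points has a mean level of 67.1%, outside that band.

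Genes that act on ribosomal DNA were examined at their 5' ends, as windows of 1000 bp either side of the transcription start or, where the reference gave none, of the gene boundary richer in listed positions. Of 25 genes of RNA polymerase I transcription (polymerase subunits, initiation factors such as Ubtf and Rrn3, and the terminator factor Ttf1), 21 were measured and all 21 lay below 5% in both groups. Of these, 11 were higher and 10 lower in hemicastrated mice, 0 were called by edgeR and 0 had an unadjusted p below 0.05. The median difference was 0.00266 points, beside 0.0270 points over all 16690 measured gene ends, of which 0.0% were called and 4.31% had an unadjusted p below 0.05.

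Of 20 genes of ribosomal DNA silencing, 19 were measured and 18 lay below 5% in both groups, the exception being Smarca5, the remodelling subunit of NoRC, at 4.93% ± 0.687 in hemicastrated and 6.25% ± 1.48 in sham mice (SD, n = 3 each). Of the 19, 11 were higher and 8 lower in hemicastrated mice, with a median difference of 0.00426 points. Also here 0 were called by edgeR, and 1 had an unadjusted p below 0.05. That was Suv39h1, a histone H3 lysine methyltransferase, with 0.205%, 0.223% and 0.15% in hemicastrated mice and 0.594%, 0.594% and 0.307% in sham mice (edgeR, unadjusted p = 0.0264, adjusted p = 0.997). The groups did not overlap there, and mitochondrial calls were methylated at 0.478% to 0.617% in the same libraries.

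The other gene ends among the 2 smallest p of each list had no unadjusted p below 0.05. Dnmt1, the maintenance DNA methyltransferase, had 0.643% ± 0.250 in hemicastrated and 0.424% ± 0.0345 in sham mice (edgeR, unadjusted p = 0.0837). Taf1d, a subunit of the initiation factor SL1, had 0.807% ± 0.649 and 0.355% ± 0.0519 in hemicastrated and sham mice (edgeR, unadjusted p = 0.0582). Polr2h, a subunit shared by the RNA polymerases, had 0.542% ± 0.274 and 0.862% ± 0.278 in hemicastrated and sham mice (edgeR, unadjusted p = 0.0799). Values are mean ± SD, n = 3 each, and the adjusted p was 0.997 by edgeR for each. These means lay below, within and above the 0.478% to 0.617% of mitochondrial calls.

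At the edge of the coverage rule, 14 members had exactly 10 reads in their thinnest library, with a mean level of 39.9%, and 13 positions just missed it at 9 reads, with a mean level of 46.5%. The first 3 of each by coordinate are named here. Just inside, position 39843169 had 51.4%, 71.7% and 50% in hemicastrated mice and 77.1%, 64.3% and 71.2% in sham mice. Positions 39843299 and 39845445 were also at 10 reads, with 2.94% and 0% in hemicastrated mouse 3. Just outside, position 39844371 had 22.2%, 41.7% and 12.5% in hemicastrated mice and 66.0%, 22.2% and 53.1% in sham mice. Position 39844660 had 44.4%, 10.4% and 0.893% in hemicastrated mice and 66.7%, 0% and 6.78% in sham mice. Position 39847005 had 23.8%, 30.8% and 8% in hemicastrated mice and 51.7%, 55.6% and 52.9% in sham mice. Hemicastrated mouse 1 and sham mouse 2 were level at the first of these, hemicastrated mouse 1 stood next to sham mouse 1 at the top of the second, and the groups did not overlap at the last.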

How the data were processed

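Per the labels' protocols, testis DNA was cut with MspI, fragments of 40 to 220 bp were bisulfite converted, amplified by PCR and sequenced. The submitters' processing notes name Bismark without a version, TopHat2 2.0.11 and GRCm38, and do not say what each was used for. The authors deposited, per the file headers, a methylated and an unmethylated read count for each cytosine position, with no normalization, and a level in percent; strand, context and any removal of PCR copies were not stated. Levels were recomputed from the counts as 100 times methylated over all reads.

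Positions covered by 10 or more reads in every library (autosomes, X and Y) were fitted together with edgeR 4.0.16 in R 4.3.3 (quasi-likelihood test, Benjamini-Hochberg adjustment, threshold 0.05), singly and summed over 500 bp tiles or gene ends holding 3 or more such positions. For single positions the spread in that fit was estimated from all positions together. The alternative was limma 3.58.1 on log2 ratios with 1 added to each count. Library values were compared by exact permutation in Python 3.11.15 with numpy 2.4.6, and intervals are Wilson 95% from scipy 1.17.1. The model was tested on simulated data. The members, gene lists and tests were chosen with earlier results of these data known. Positions were named by the 3 smallest p in each direction, the 3 highest and 3 lowest means, the most reads and the 3 nearest the minimum on each side. Ties at the minimum were broken by the lowest coordinate. Gene ends were named by the 2 smallest p of each list, and 3 symbols matched through older names. Positions 39847337, 39847628, 39847633 and 39843860, the runs and stretches, and Smarca5 were named after their values were seen. Nothing in the labels ties mice to litters or batches, and each library is 1 mouse.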

Additional observations from a re-analysis of the deposited data

How the results depend on the processing

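Of 109 values of the main comparisons under other settings, 98 were counted as unchanged. The count was 184 of 205 for single positions, tiles and gene ends. For levels and relations this meant the same direction and side of the threshold, or direction alone where no test was made. For counts of calls it meant an equal or similar count, and no tile or listed gene end was called under any setting. Another model or read minimum could not change the level difference of a single position, tile or gene end, only its side of the threshold. The exact tests of 3 mice against 3 or fewer could not pass 0.05 under any setting, so for these only the direction was kept. Leaving out 1 mouse at a time gave differences of -28.1 to -10.4 points pooled, -24.8 to -7.75 for the mean over members, -28.2 to -11.0, -26.4 to -7.12 and -29.5 to -9.35 before, within and after the 18S copy, and 4.32 to 12.4 for the copy against the rest. Members called by edgeR ran from 0 to 24 when a mouse was left out, and were 0 by limma and 0 with a minimum of 20 reads. With the replicate numbers as a replicate block 2 members were called by edgeR (0.0744% of all positions). The correlations of same-numbered deviations were 0.0251, 0.0277 and -0.00643, so the numbers were not taken to pair the mice. By construction the pooled difference is -17.6 with the block as without it (exact sign-flip p = 0.5, where 3 pairs cannot give p below 0.05). Without 1 mouse at a time, position 39847522 ran from -0.849 (without hemicastrated mouse 2) to 28.1 points, 39843239 from -14.9 (the same mouse) to 24.8, with -6.14 without sham mouse 2, and 39843210 from -17.9 (hemicastrated mouse 2) to 25 points, with -8.23 without sham mouse 2, so that these differences turned over. The relation of the pooled level to the rest was 0.941 without its 2 farthest mice (p = 0.0417, exact permutation) and -0.752 within sham mice, and that to the share of calls was 0.928 without its 2 farthest (p = 0.0833, exact permutation). The cause was not tested. Members near the minimum are imprecise: 11 reads gave an interval of 28% to 78.7%. PCR copies are not independent molecules.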
